A study of Mus musculus with 7 samples.

Results

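The genes described here are transcription factors of the p53 family (Trp63, Trp73 and Trp53) and factors known for driving epithelial-mesenchymal transition, or EMT (Snai1, Snai2, Twist1, Twist2, Zeb1 and Zeb2). They were chosen by name, 9 genes in all, and 8 of them had a probe set that the platform annotation assigned to that gene symbol alone. These 8 genes had 17 such probe sets, out of 28895 over 17096 genes. Trp53 was not analysed here. Where a gene had several probe sets, the brightest by its mean over the 7 arrays was used for the gene, and the others were compared with it.

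The p53 family shares a DNA-binding domain. p63 is the member that stratified and bilayered epithelia need to keep a basal layer, and in the mammary gland it marks basal, myoepithelial cells. The Snail, Twist and Zeb factors bind short DNA motifs called E-boxes. They are known for repressing E-cadherin and other junction genes when epithelial cells turn mesenchymal, and stromal cells such as fibroblasts express several of them too.

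The samples were sorted mouse mammary cells on 7 Affymetrix arrays. Adult luminal cells (2 arrays) came from K8CREERT2/RosaYFP mice and adult basal cells (2 arrays) from K5CREERT2/RosaYFP mice. In both lines tamoxifen activates a Cre recombinase that switches on YFP, under the keratin 8 or the keratin 5 promoter, and YFP+ cells were taken 8 weeks later. Only cells in which the promoter was active at labelling, and their descendants, carry YFP. Embryonic cells (3 arrays of 2000, 2000 and 813 cells) were high in CD49f and in the GFP reporter of Lgr5-IRES-GFP embryos. Those embryos were female and at day 14 of gestation (E14), and each replicate pooled the female embryos of 1 litter. The tissue label of the adult samples repeats the embryonic one. The ages of the adult mice and whether the arrays hold separate animals are not given in the sources used here, so a p-value here reflects array-to-array spread alone, which may be technical.

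Median log2 intensity ran from 5.05 to 5.08 over the arrays. A background level of 5.98 (log2) was set at the 95th percentile of mean levels over 93 probe sets, which read 73 genes restricted to other organs, and 43.7% to 46% of genes lay above it per array. A gene passed the test when limma gave an adjusted p under 0.05 (Benjamini-Hochberg, over all genes) and the adult luminal and basal means were at least 2-fold apart. Differences are luminal minus basal on the log2 scale, so a negative value means higher in basal cells. All 8 measured basal and myoepithelial markers passed with higher levels in basal cells. Krt5 is among them, and its promoter drove the basal label. Of 9 luminal markers 6 passed, and the luminal arrays lay above the basal arrays for all 9. Over all genes, 3.24% passed on the basal and 3.57% on the luminal side, and luminal arrays lay above basal arrays for 33.9%. Krt8, whose promoter drove the luminal label, differed by 0.40 ± 0.12 (SE, limma adjusted p = 0.075) and did not pass.

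Adult basal cells had more Trp63 and Snai2 transcript than luminal cells, and these were the 2 of 8 factors that passed the test. Over all genes, 3.24% passed with higher basal levels and 3.57% with higher luminal levels. No factor passed on the luminal side. The basal arrays lay above the luminal arrays, without overlap, for Trp63, Snai1, Snai2 and Zeb2. That is 4 of 8 factors, against 25.3% of all genes; luminal arrays lay above basal arrays for 33.9% of all genes and for none of the factors. The arrays overlapped for Trp73, Twist1, Twist2 and Zeb1. The median difference over the 8 factors was -0.50, against 0.02 over all genes. The plot of intensity in every array shows these patterns gene by gene.

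**Figure D1:**
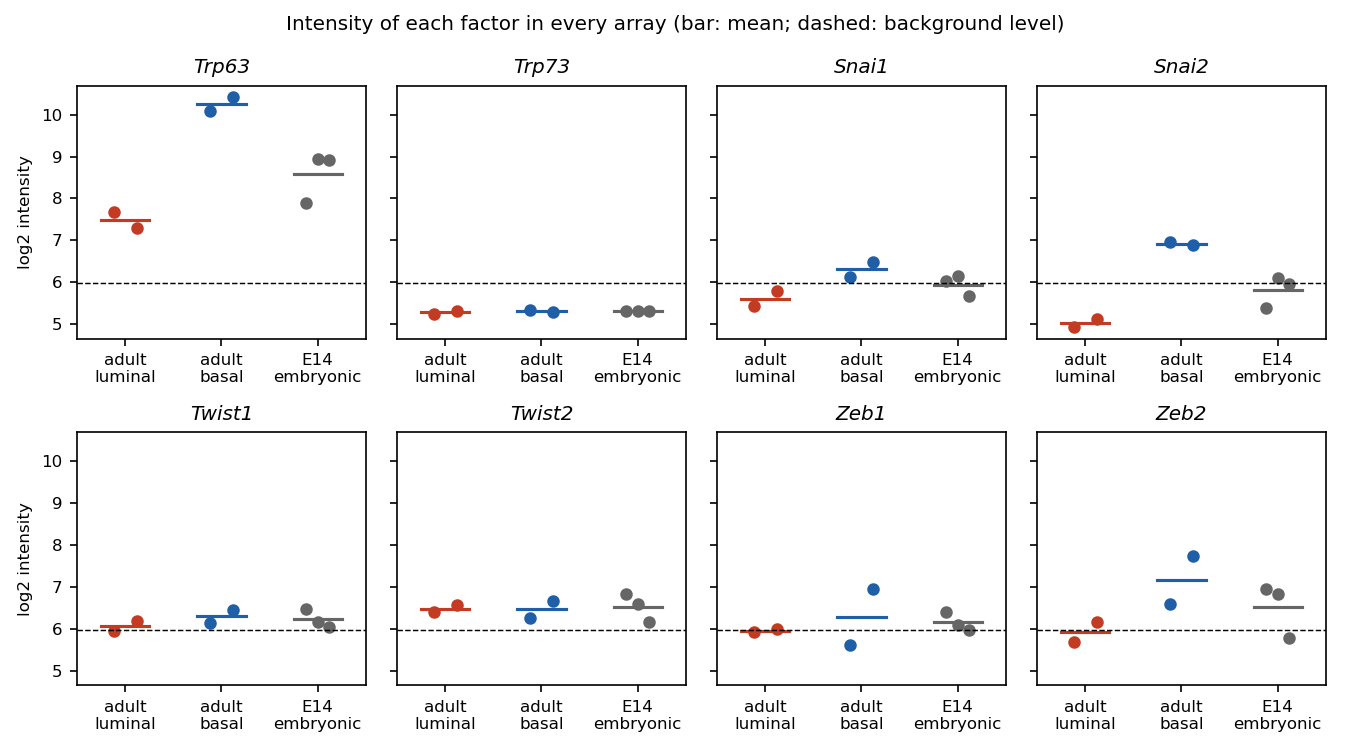
Log2 intensity (vertical axis) of the 8 measured factors in adult luminal (red, n = 2), adult basal (blue, n = 2) and E14 embryonic (grey, n = 3) arrays; points are arrays, bars are means and the dashed line is the background level of 5.98. Trp63 and Snai2 separate the adult lineages widely, Trp73 stays below the line in all 7 arrays, and the basal arrays of Zeb1 and Zeb2 lie far apart.

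Trp63 had a log2 intensity of 7.67 and 7.30 in the luminal arrays and 10.09 and 10.41 in the basal arrays. Both basal arrays were far above both luminal arrays, and the gap between lineages exceeded the gaps within them (0.36 and 0.32). The difference was -2.77 ± 0.18 (SE, n = 2 and 2 arrays, limma adjusted p = 0.00247), which is 6.81-fold. All luminal values lay above the background level, so signal was measured in both sets of arrays. The basal markers Krt5 (9.13 and 9.56) and Krt14 (9.54 and 9.42) were above background in the luminal arrays too. Which cells in the luminal samples carried the Trp63 signal was not tested. Trp63 passed the test in each of the 4 fits that left out 1 adult array, with differences from -2.95 to -2.58.

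Trp63 has 4 probe sets, and 3 of them lay above the background level by their mean over the 7 arrays. The second, by mean level, read 6.38 and 6.21 in luminal and 8.48 and 8.64 in basal arrays, a difference of -2.27 ± 0.13. The next read 5.58 and 5.91 in luminal and 7.37 and 8.22 in basal arrays, a difference of -2.05 ± 0.30. Its luminal values were below background, so that size is not exact. All 3 had limma adjusted p-values of 0.00366 to 0.0181 over all probe sets, and in each the basal arrays were the higher ones. The fourth stayed between 3.12 and 3.39 in all 7 arrays, below background, and carried no reading of the gene. Averaging all 4 gave -1.80 ± 0.13, which still passed (limma adjusted p = 0.00253). The p63 gene makes forms with and without an N-terminal transactivation domain from separate promoters, and the annotation used here does not say which form a probe set reads.

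**Figure D2:**
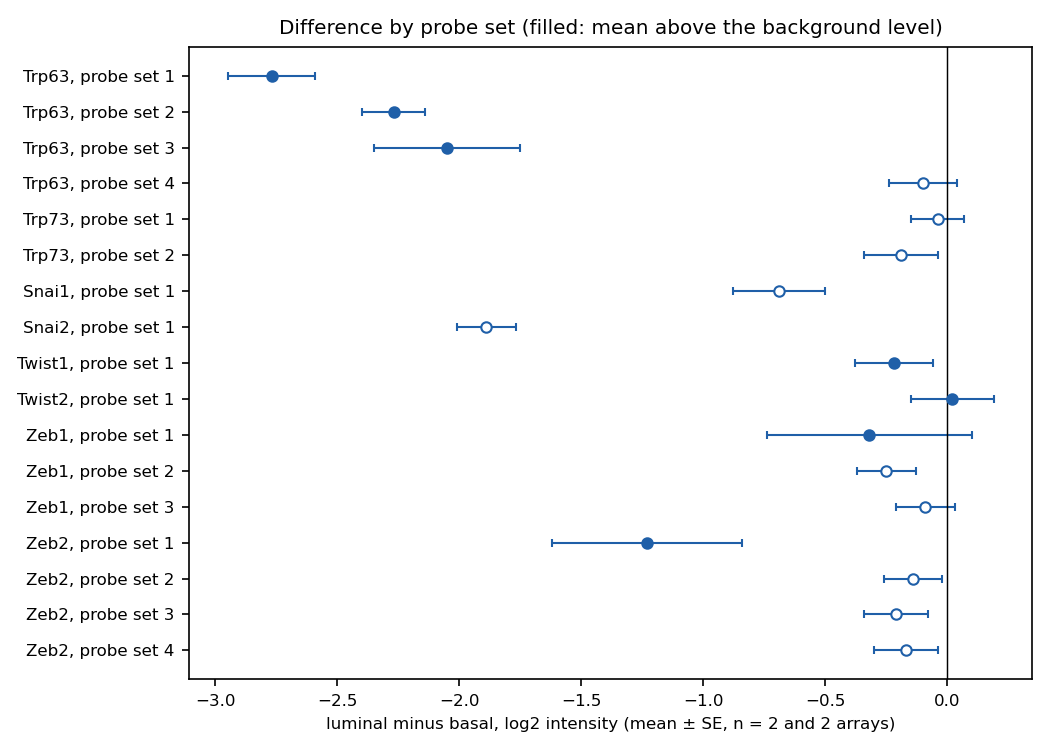
Difference luminal minus basal in log2 intensity (horizontal axis, mean ± SE, n = 2 and 2 arrays) for each of the 17 probe sets, numbered within a gene by falling mean level; filled points have a mean above the background level of 5.98. The 3 filled Trp63 probe sets lie between -2.77 and -2.05, while the dim ones of Trp63, Zeb1 and Zeb2 lie near 0.

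The genes whose adult pattern was nearest to Trp63 were Cacna2d1, a calcium channel subunit gene, Elovl4, a fatty acid elongase gene, and Igsf10. Nearness was the Euclidean distance over the 4 adult arrays after centring each gene on its adult mean, among 8354 genes above background in an adult lineage. The distances were 0.19, 0.25 and 0.26 (log2). Cacna2d1 read 5.35 and 5.24 in luminal and 7.97 and 8.31 in basal arrays, so its luminal level lay under the background. With 4 arrays, such a list mostly matches the size of the lineage difference.

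Trp73, the family member known from neural development and ciliated cells, stayed below the background level in all 7 arrays. Its brighter probe set read 5.24 and 5.32 in luminal and 5.34 and 5.30 in basal arrays, a difference of -0.04 ± 0.12 (95% interval -0.33 to 0.26). The other read 4.94 to 5.32 over all arrays. Both adult lineages overlapped on the brighter probe set. At this signal, a difference in Trp73 was not detectable.

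Snai2, which encodes the Snail-family repressor Slug, had a log2 intensity of 4.93 and 5.12 in luminal arrays and 6.95 and 6.89 in basal arrays. Both basal arrays were above the background level and both luminal arrays below it. The difference was -1.89 ± 0.13 (SE, n = 2 and 2, limma adjusted p = 0.00247). Because the luminal level was under background, the size is not exact: basal Snai2 stood 0.94 above the background level itself (log2), or 1.91-fold. Adding 32 to each intensity before the log gave -1.24, which still passed (limma adjusted p = 0.0192). Snai2 passed without each of the 4 adult arrays in turn, with differences from -1.99 to -1.80. The annotation gave Snai2 a single probe set, so no second reading of the gene exists here.

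The genes nearest to Snai2 over the adult arrays were Pros1, the protein S gene of blood coagulation control, Samd4 and Stac2. Their distances were 0.05, 0.06 and 0.08 (log2), with differences of -1.89, -1.90 and -1.90. Samd4 read 7.04 and 7.19 in luminal and 9.01 and 9.02 in basal arrays, above background in both lineages.

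Snai1, the other Snail-family repressor measured, moved less. It read 5.43 and 5.79 in luminal arrays and 6.13 and 6.48 in basal arrays, so the lineages did not overlap but both luminal arrays lay below background. The difference was -0.69 ± 0.19 (95% interval -1.16 to -0.22) and did not pass (limma adjusted p = 0.06). The gaps within the lineages were 0.36 and 0.35. Whether the Snai1 and Snai2 differences differ from each other was not tested.

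Twist1 and Twist2, basic helix-loop-helix factors of mesenchyme, were close to background, and their lineages overlapped. Twist1 read 5.95 and 6.19 in luminal and 6.14 and 6.45 in basal arrays, with a difference of -0.22 ± 0.17 (95% interval -0.63 to 0.19). Twist2 read 6.39 and 6.57 in luminal and 6.25 and 6.67 in basal arrays, with a difference of 0.02 ± 0.18 (95% interval -0.42 to 0.46). Neither passed (limma adjusted p = 0.441 and 0.963). The sign for Twist2 has no meaning, since it turned under quantile normalization (-0.04). The intervals leave room for changes of up to 0.63 (log2) in Twist1 and 0.46 in Twist2.

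Zeb2, a zinc-finger E-box repressor, read 5.69 and 6.17 in luminal arrays and 6.58 and 7.73 in basal arrays. The basal arrays were both higher, yet they differed from each other by 1.15. The difference was -1.23 ± 0.39 (95% interval -2.19 to -0.27) and did not pass (limma adjusted p = 0.0876). It passed when genes at or below background were left out of the fit (limma adjusted p = 0.0366). Without basal replicate 1 it was -1.80 and passed (limma adjusted p = 0.00556), and without basal replicate 2 it was -0.65 and did not (limma adjusted p = 0.0988). The call turned on which basal array was used. The luminal mean (5.93) lay just under background, and the basal mean stood 1.18 above that level.

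Zeb1, its relative, showed the same split between the basal arrays. It read 5.92 and 5.99 in luminal arrays, and 5.61 and 6.94 in basal arrays, so that 1 basal array lay below both luminal arrays and the other above them. The readings of 5.61 and 5.92 were below the background level of 5.98, and only 4 of the 7 arrays lay above it. The difference was -0.32 ± 0.41 (95% interval -1.33 to 0.70, limma adjusted p = 0.68). Without basal replicate 2 it was 0.35, and without basal replicate 1 it was -0.98. The SD between the basal arrays, 0.94 for Zeb1 and 0.82 for Zeb2, exceeded that of 99.9% and 99.7% of the 7742 genes above background. The 5 other probe sets of Zeb1 and Zeb2 lay below background, with differences of -0.25 to -0.09, and give no second reading.

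Zeb2 and the summed endothelial and pericyte, fibroblast and leukocyte markers were all highest in basal replicate 2. Within the luminal and embryonic groups, all were lowest in luminal replicate 1 and embryonic replicate 3. The 8 basal and myoepithelial markers showed the same highs and lows, so these are not particular to those cell types. They summed to 1910 and 2790 in luminal, 14500 and 15500 in basal, and 4320, 5030 and 3900 in embryonic arrays. Zeb1 went against the sums in basal replicate 1. The summed intensity of 11 endothelial and pericyte markers was 489 and 891 in the luminal arrays and 1240 and 2050 in the basal arrays, highest in basal replicate 2 where both Zeb genes were highest. Basal replicate 1, with the next highest sum, had the lowest Zeb1 reading of all arrays, which was below background. In the embryonic arrays the endothelial and pericyte sum was 891, 941 and 612, and Zeb2 read 6.96, 6.83 and 5.78, lowest in the same array. The 11 fibroblast markers summed to 2660 and 4450 in luminal and 4930 and 6370 in basal arrays, and to 4750, 4380 and 3310 in embryonic arrays. Of the markers, Tek, an endothelial receptor gene, and Col1a2, Pdgfra, Mfap5 and Fap among the fibroblast genes lay at or below background in all adult arrays. Pecam1, an endothelial adhesion gene, read 6.09 and 7.29 in luminal and 7.95 and 8.69 in basal arrays. The 11 leukocyte markers summed to 656 and 761 in luminal, 793 and 962 in basal and 606 to 765 in embryonic arrays, with Ptprc, Csf1r, Itgam, Cd3e and Tyrobp at or below background in all adult arrays. The part of these cells in the Zeb values was not tested. In sorted bulk samples, a different share of a cell type and a different amount of RNA per cell cannot be told apart.

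**Figure D3:**
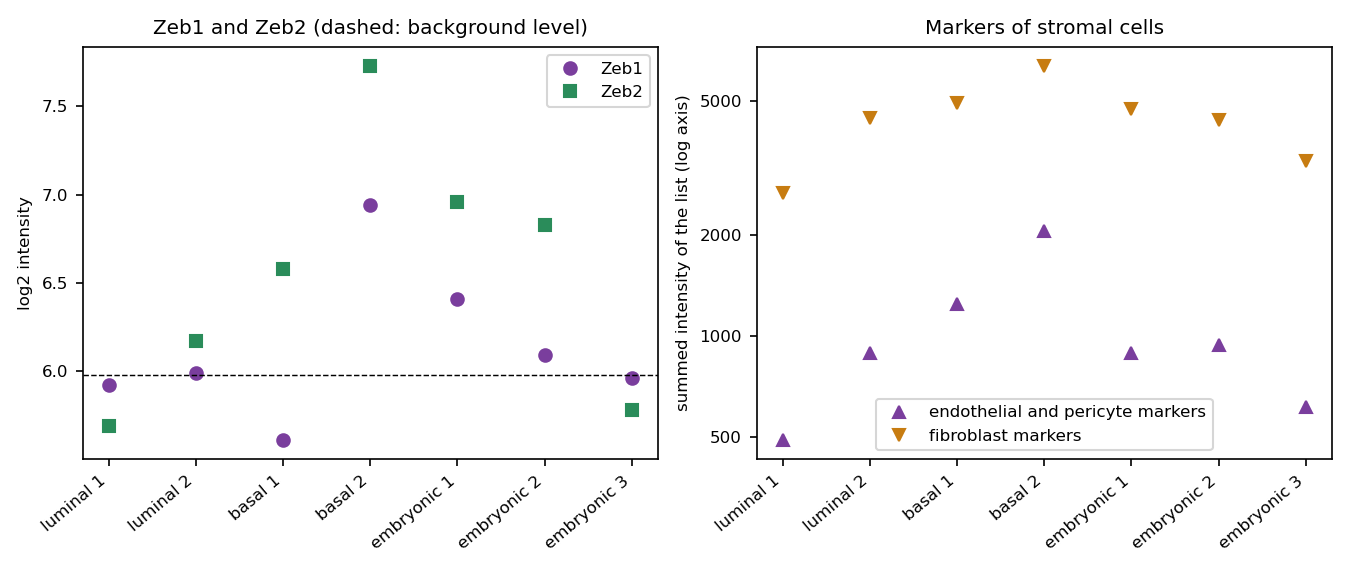
Left: log2 intensity of Zeb1 and Zeb2 in each array, with the background level of 5.98 dashed; right: summed linear intensity, on a log axis, of 11 endothelial and pericyte and 11 fibroblast markers in the same arrays. Basal replicate 2 has the highest Zeb1 (6.94), Zeb2 (7.73), endothelial sum (2050) and fibroblast sum (6370) of all 7 arrays. The sum of 8 basal and myoepithelial markers, not shown, was highest there too (15500).

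Genes around the p53 family were examined as lists. None of 14 measured regulators of p53 family proteins passed the test in limma, and 2 had an unadjusted p under 0.05 (31.6% of all genes did). These were Mdm4, an inhibitor of p53, at 0.70 ± 0.14, and the kinase gene Hipk2, named after its values were seen, at 0.74 ± 0.12. Both were higher in luminal cells with limma adjusted p-values of 0.029 and 0.016, but under 2-fold; an adjusted p under 0.05 with no fold minimum was seen in 16.8% of all genes. Mdm2, the ubiquitin ligase gene that p53 induces and that degrades p53, read 9.24 and 9.09 in luminal and 9.25 and 9.47 in basal arrays (-0.20 ± 0.14). The list's median difference was -0.04, against 0.02 for all genes.

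Of 21 measured p53 response genes, 1 passed with higher levels in basal and 2 in luminal cells, against 3.24% and 3.57% of all genes. Without regard to the test, the basal arrays lay above the luminal arrays for 6 of them and below for 8. Over all genes those shares were 25.3% and 33.9%, so the counts were near the background. Phlda3, which encodes a repressor of Akt, read 6.05 and 6.23 in luminal and 8.47 and 8.61 in basal arrays (-2.41 ± 0.14, limma adjusted p = 0.0023). Trp53inp1, a stress-response gene, was higher in luminal cells (1.69 ± 0.17), as was the RNA-binding protein gene Zmat3 (1.05 ± 0.19, basal mean 5.95, just under background). Cdkn1a, the gene of the cell cycle inhibitor p21, differed by -0.29 ± 0.12 and the cell death gene Bbc3 by -0.03 ± 0.15, and neither passed. The list's median was 0.06.

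Of 18 measured epithelial genes linked to p63, 8 passed with higher levels in basal cells and none in luminal cells, against 3.24% and 3.57% of all genes. Krt5, Krt14 and Cdh3 in this list are themselves standard basal markers, so the count is no independent evidence of p63 activity. The only members with a higher luminal mean were Fgfr2 (0.22 ± 0.15) and Ripk4 (0.09 ± 0.18), and neither passed. Lama3, a laminin chain gene, read 7.75 and 7.60 in luminal and 10.64 and 10.54 in basal arrays (-2.92 ± 0.13). The P-cadherin gene Cdh3 (-3.01 ± 0.14) and the hemidesmosome collagen gene Col17a1 (-3.07 ± 0.15) were also higher in basal cells. The integrin genes Itga3 (-0.68 ± 0.13) and Itga6 (-0.45 ± 0.12) missed the test. The median of these genes was -0.83, and the count was 7 or 8 whichever adult array was left out.

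Among 19 partners of the EMT factors, 1 passed on the basal and none on the luminal side, against 3.24% and 3.57% of all genes, so the count was near the background. Id4, whose product blocks helix-loop-helix proteins from binding DNA, read 8.60 and 9.43 in luminal and 11.38 and 11.13 in basal arrays (-2.24 ± 0.28, limma adjusted p = 0.00821). Tcf3 and Tcf4, genes of the E proteins with which Twist factors pair, differed by 0.23 ± 0.13 and -0.34 ± 0.18 and did not pass. The median was 0.04.

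Of 20 epithelial genes that EMT factors are known to repress, 10 passed with higher levels in luminal cells and none in basal cells. Over all genes, 3.57% and 3.24% passed. Cldn3, which passed, and Cldn4 are also in the luminal marker list, so the count is no independent evidence of repression by EMT factors. Without regard to the test, luminal arrays lay above basal arrays for 16 of the 20 and below for 1, Dsp (-0.32 ± 0.14). Those shares were 33.9% and 25.3% over all genes. The tight junction gene Marveld3 read 7.30 and 7.41 in luminal and 5.36 and 5.48 in basal arrays (1.93 ± 0.13), its basal level being below background. Mal2, a gene of apical transport whose basal level was below background too, differed by 1.75 ± 0.15 and the polarity gene Crb3 by 1.14 ± 0.12. Cdh1, the E-cadherin gene and the best-known target, read 8.89 and 8.47 in luminal and 8.11 and 8.10 in basal arrays. At 0.58 ± 0.17 it missed the test (limma adjusted p = 0.0752), as did the adhesion gene Epcam (0.39 ± 0.13). The list's median was 0.96. Without luminal replicate 1, 4 members passed.

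E-box letters were looked for in the 250 bases upstream of RefSeq transcript starts (build GRCm38.p6), since the Snail and Zeb factors are known to bind CACCTG, or CAGGTG on the other strand. Over all 32851 windows, 17.2% held 1 or more. Of the 20 repressed epithelial genes 11 had a window, 17 windows in all, some of which overlap, and 10 windows held the motif. So did 5 of 12 windows (41.7%) of the p63-linked basal genes, so the share is not particular to the repressed genes. Of the factors, 6 had a window, and the motif was found in 1 of the Trp73 windows and in that of Snai1. Trp63, Snai2 and Zeb1 had none in the table. The sequences below are those of 3 luminal-high genes, chosen after their values were seen, and of Snai1, with the motif in capitals; each ends at the base before the transcript start.
Crb3 (chr17:57061951-57062200, plus strand): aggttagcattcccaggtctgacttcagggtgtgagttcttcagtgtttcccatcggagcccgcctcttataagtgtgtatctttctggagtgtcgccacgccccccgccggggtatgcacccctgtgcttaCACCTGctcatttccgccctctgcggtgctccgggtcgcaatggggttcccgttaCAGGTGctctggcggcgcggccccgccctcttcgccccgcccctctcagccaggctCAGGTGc
Rab25 (chr3:88548280-88548529, minus strand): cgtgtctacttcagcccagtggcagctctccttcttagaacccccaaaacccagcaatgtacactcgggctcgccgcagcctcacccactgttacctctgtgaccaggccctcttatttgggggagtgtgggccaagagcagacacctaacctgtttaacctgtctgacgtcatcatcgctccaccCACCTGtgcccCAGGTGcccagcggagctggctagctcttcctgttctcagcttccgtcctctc
Tjp3 (chr10:81291582-81291831, minus strand): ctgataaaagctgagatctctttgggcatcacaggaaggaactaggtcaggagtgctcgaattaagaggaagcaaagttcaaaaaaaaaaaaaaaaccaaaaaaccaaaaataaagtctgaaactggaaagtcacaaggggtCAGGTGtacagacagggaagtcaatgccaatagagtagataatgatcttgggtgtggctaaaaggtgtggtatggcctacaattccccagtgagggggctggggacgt
Snai1 (chr2:167537945-167538194, plus strand): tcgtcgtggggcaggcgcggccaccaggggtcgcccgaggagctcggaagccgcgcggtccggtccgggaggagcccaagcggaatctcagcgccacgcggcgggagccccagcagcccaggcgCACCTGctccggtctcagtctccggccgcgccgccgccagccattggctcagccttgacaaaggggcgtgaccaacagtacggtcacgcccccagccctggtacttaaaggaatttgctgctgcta

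In the windows shown, Crb3 holds 3 matches, Rab25 2, and Tjp3 and Snai1 1 each. Tjp3 has a separate window, not shown, that also holds 1. Crb3 read 8.82 and 8.80 in luminal and 7.69 and 7.64 in basal arrays. Rab25, a membrane recycling gene, differed by 1.60 ± 0.21 and Tjp3, a tight junction scaffold gene, by 1.28 ± 0.15, and both passed. Epcam, Cldn4 and Patj also held the motif and did not pass. Cldn3 passed (1.39 ± 0.17) with no motif in its window, and Ovol2 and Dsp had neither. A match is a run of letters and not a measured binding site.

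Of 18 mesenchymal genes of EMT, 7 passed with higher levels in basal cells and none in luminal cells, against 3.24% and 3.57% of all genes. The homeobox gene Prrx1 read 5.94 and 6.14 in luminal and 8.08 and 8.51 in basal arrays (-2.26 ± 0.18). The collagen gene Col5a2 (-2.42 ± 0.22) and the gelatinase gene Mmp2 (-3.52 ± 0.39) were also higher in basal cells. The N-cadherin gene Cdh2 (-0.71 ± 0.15) and Cdh11 (-0.38 ± 0.12, below background in both lineages) did not pass. The median was -0.93. The count was 4 without luminal replicate 1, 4 without basal replicate 2, 4 in a fit over all 7 arrays and 3 with 32 added to each intensity. Fibroblast and endothelial sums, given above, were higher in the basal arrays too. Single fibroblast markers were mixed. The basal arrays lay above the luminal arrays for 5 of 11, against 25.3% of all genes. Mfap5, 1 of these 5, lay below background. The luminal arrays lay above the basal arrays for 1, Col6a3 (0.98), against 33.9% of all genes, and the abundant Dcn differed little (0.05). The part of these cells in this list was not tested.

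**Figure D4:**
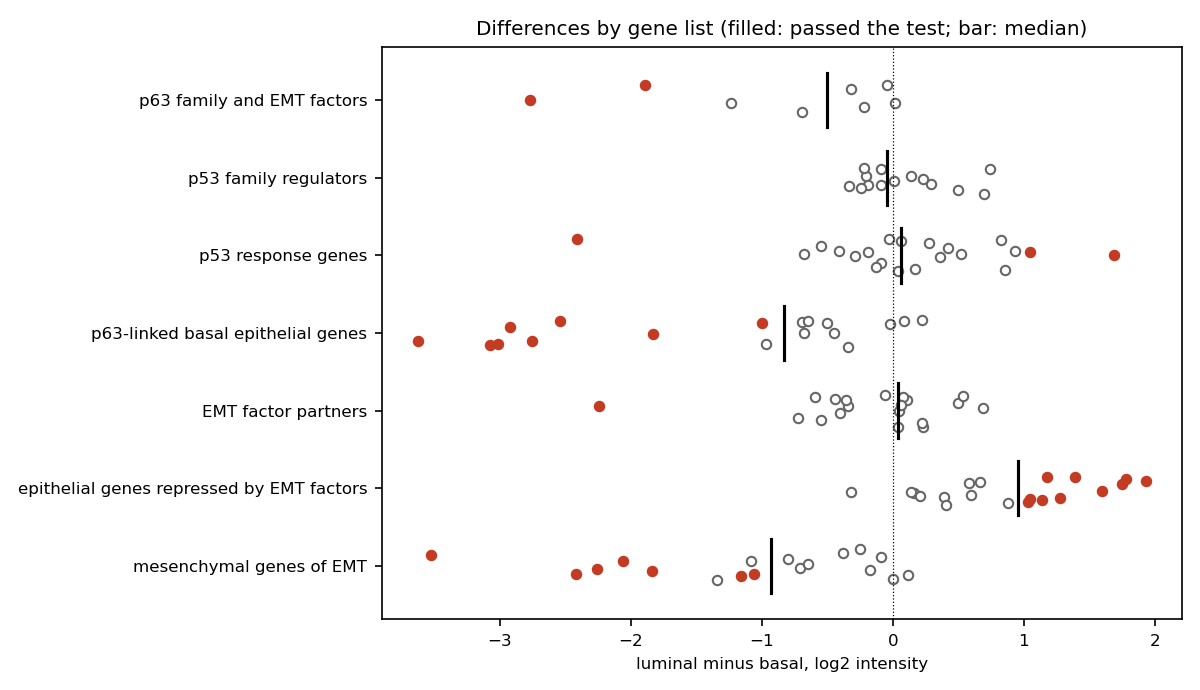
Difference luminal minus basal in log2 intensity (horizontal axis) of each measured gene of the factor list and of 6 related lists; filled points passed the test, open points did not, and bars are list medians. Points of the p63-linked and mesenchymal lists spread to the basal side (medians -0.83 and -0.93) and those of the repressed epithelial list to the luminal side (0.96).

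The embryonic columns differed from each other in Trp63 and Zeb2 more than in most genes. Trp63 read 7.90, 8.95 and 8.91, with the first array about 1 log2 unit below the others (SD 0.60, larger than in 97.3% of the 7742 genes above background). Its second probe set read 6.62, 7.14 and 7.81 and the next 5.68, 6.30 and 7.60. All 3 were lowest in replicate 1, while the highest array differed between them. Zeb2 read 6.96, 6.83 and 5.78 (SD 0.65, larger than in 98.1%), with replicate 3, the array of 813 cells, lowest.

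Snai2 read 5.38, 6.11 and 5.96 in embryonic arrays, lowest in replicate 1 as Trp63 was (SD 0.39). Snai1 read 6.03, 6.14 and 5.66, Twist2 6.83, 6.59 and 6.16, Twist1 6.46, 6.16 and 6.05, and Zeb1 6.41, 6.09 and 5.96. These 4 genes were lowest in replicate 3, as Zeb2 was. Trp73 read 5.32 in all 3. The median SD over the 8 factors, of which 5 lay above background, was 0.29, against 0.19 for genes above background. It was the larger in the adult groups too, at 0.15 against 0.11 in luminal and 0.24 against 0.15 in basal arrays. Without embryonic replicate 1 the factors' embryonic median was 0.10, and without replicate 3 it was 0.19. Among all probe sets, 37.6% had identical values in embryonic replicates 1 and 2, so an SD over these columns can understate the spread. Of the 17 probe sets of the factors, 3 had identical values in a pair of embryonic arrays, and all 3 lay below background.

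Embryonic means lay between the adult means for Trp63 (8.59 between 7.48 and 10.25), Snai2 (5.82 between 5.03 and 6.92), Snai1 (5.94), Twist1 (6.22), Zeb1 (6.15) and Zeb2 (6.52). They were within 0.28 (log2) of the mean of the 4 adult arrays for all 8 factors, with Trp63 the farthest. Over all probe sets the embryonic minus adult mean had an SD of 0.09, against 0.49 for luminal minus basal. An embryonic mean near the adult mean is therefore general in the table and not particular to the factors. How the sets of arrays were scaled to each other is not stated, so an embryonic position between the lineages describes the table, and embryonic levels were not tested against adult ones.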

How the data were processed

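Total RNA of sorted cells was amplified and hybridised to Affymetrix mouse arrays, per the labels' protocols. The authors deposited probe set intensities on a linear scale; RMA and affy are named in the submitters' processing notes, and their versions and any adjustment between array sets are not given in the sources used here. Of 45141 rows, 4 without values and 104 controls were left out, and log2 was taken. Of 45033 probe sets, 28895 had 1 gene symbol, 551 several, and 15587 were unnamed here.

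Limma 3.58.1 (R 4.3.3) fitted luminal and basal means to the 4 adult arrays (2 residual degrees of freedom, prior 3.73). The embryonic columns were kept out of the fit because many of their values are identical between replicates. The fit was tested on simulated data. Alternatives covered the arrays fitted, probe set choice, dim genes, quantile normalization, a pseudocount, the variance prior, the fold minimum, a replicate block and each replicate left out. Genes named were all factors, up to 3 passing members per direction by adjusted p and 2 that did not pass per list, and the 3 nearest genes of Trp63 and Snai2; exceptions are stated. The factors and lists were chosen with earlier results of these data known. List genes without a single-symbol probe set were not analysed. Figures used matplotlib 3.10.9.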

Additional observations from a re-analysis of the deposited data

How the results depend on the processing

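The 2 factors that passed, Trp63 and Snai2, passed under every alternative in which they were fitted; Snai2 itself lay below background by its mean (5.91) and was left out when dim genes were. That fit then called Trp63 and Zeb2, 2 factors again. The count of factors ranged from 2 to 3 when 1 adult array was left out. The count over all genes, 1165, was 2158 of 45033 when every probe set was fitted, 505 with 32 added to each intensity and 2879 with no fold minimum, and ranged from 519 (without luminal replicate 1) to 1443 (without basal replicate 2). Fits with 1 array in a group assume that it varies like the other group. Luminal and basal arrays share replicate numbers, and deviations of same-numbered arrays correlated at 0.15 over 7742 genes, with 2 pairs only, so the numbers were not taken to pair the samples. With the replicate block, 1208 genes and 3 factors passed, Zeb2 being added (limma adjusted p = 0.025). Signs turned for Twist2 under quantile normalization (-0.04). With 1 adult array left out, Twist2 ranged from -0.18 to 0.23, Zeb1 from -0.98 to 0.35 and Trp73 from -0.08 to 0.00, and none of these passed. The median embryonic SD of the factors, 0.29, ranged from 0.10 without replicate 1 to 0.37 without replicate 2. Signal over background limits Trp73, Snai1, Twist1, Zeb1 and the luminal level of Snai2. Percentiles of the other-organ probe sets were 5.64 at the 90th and 5.98 at the 95th, so genes near these values change sides with the choice.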
